A study of Mus musculus with 24 samples.

Results

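The RNA levels of 10 genes of the TNF and NF-kB response were examined in mouse kidney. The genes were Tnf, Csf1, Tnfrsf12a, Icam1, Nfkb1, Nfkb2, Relb, Nfkbia, Tnfaip3 and Birc3, taken by symbol. The list was chosen with earlier results of these data known, so shares over all genes are set beside it as description only. Estimated reads were summed over each gene's transcripts. All 10 were found among 35460 annotated genes and all 10 passed the filter on low counts in both experiments. Whole-kidney RNA was sequenced in 24 libraries from a pair of separate adenine-diet experiments, a dietary model of kidney injury. In the knockout experiment, 6 libraries labelled ENPP1 knockout came from mice with floxed ENPP1 and a CAG-ERCre transgene, a tamoxifen-inducible Cre driven by a broadly active promoter. They were set against 6 wild-type libraries from Cre-negative mice, both groups having received adenine for 14 days, and against 4 libraries from mice on a chow diet. In the antibody experiment, 4 mice given a monoclonal antibody to human ENPP1 (mAb) were set against 4 mice given control IgG. Both groups of that experiment received adenine for 14 days and 2 intraperitoneal injections per week at 50 mg/kg, and it had no chow group. Carrying Cre coincides with the knockout label, so the 2 cannot be told apart. The sources used here do not give the genotype of the chow mice, whether wild-type and chow mice received tamoxifen, the sex, age and strain of any group, or whether the mice given mAb or IgG carried the human ENPP1 gene. Each library was taken as a separate mouse; where libraries shared an animal, the p-values measure only the spread between these samples.

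TNF binds its receptors and, through adaptor proteins and the IKK kinases, leads to destruction of the inhibitor IkBa (encoded by Nfkbia), which frees NF-kB dimers such as p50 with RelA to enter the nucleus. A second, slower branch, started by receptors that include the TWEAK receptor Fn14 (encoded by Tnfrsf12a), runs through the kinase NIK (Map3k14) and the processing of p100 (Nfkb2), and releases p52 with RelB. NF-kB then induces adhesion molecules, chemokines and growth factors together with its own inhibitors, which makes the response self-limiting. In injured kidney, tubule cells, endothelium and infiltrating leukocytes can all take part.

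Sequences upstream of the start sites are shown because several of these genes carry NF-kB motifs there. RefSeq promoter sequences (assembly GRCm38.p6, the 250 bases before each annotated start) were at hand for 8 of the 10 genes, with 11 promoters in all; Nfkb1 and Relb had none. The 10-base kappaB consensus, searched on both strands, matched in 6 of the 11 promoters, belonging to 4 of the 8 genes, against 3.90% of 32851 promoters of the same length. The shorter motif GGANNTTCC, which can mark the same bases, matched in 7 of the 11 promoters, belonging to 6 of the 8 genes, against 3.59% of all promoters. The AP-1 motif TGANTCA matched in 2 of the 11, belonging to Tnfaip3 and Nfkb2, against 6.75%. No kappaB match of either form lay in the Birc3 and Tnfrsf12a windows. The motifs were chosen after the sequences had been seen, and a match is a description of letters, not a binding site. The stretches around the matches are given 5′ to 3′ on the gene's strand, with the kappaB and GGANNTTCC matches in capitals. They lie at chr12:55492648-55492850 (minus) for Nfkbia, chr10:19015411-19015560 (minus) for Tnfaip3, chr19:46304673-46304736 (plus) for the first Nfkb2 promoter, chr9:21015762-21015820 (plus) for Icam1, chr3:107760589-107760648 (minus) for Csf1 and chr17:35202186-35202244 (minus) for Tnf.
Nfkbia: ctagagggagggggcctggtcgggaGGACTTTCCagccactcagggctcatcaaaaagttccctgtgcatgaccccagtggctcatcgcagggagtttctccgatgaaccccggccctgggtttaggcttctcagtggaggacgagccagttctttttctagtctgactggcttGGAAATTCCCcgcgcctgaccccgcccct
Tnfaip3: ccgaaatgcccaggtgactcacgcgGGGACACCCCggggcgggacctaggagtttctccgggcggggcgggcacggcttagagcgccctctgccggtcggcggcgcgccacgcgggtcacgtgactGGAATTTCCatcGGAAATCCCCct
Nfkb2: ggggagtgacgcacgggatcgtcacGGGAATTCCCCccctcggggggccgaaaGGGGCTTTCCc
Icam1: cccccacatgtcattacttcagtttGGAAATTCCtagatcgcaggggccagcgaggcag
Csf1: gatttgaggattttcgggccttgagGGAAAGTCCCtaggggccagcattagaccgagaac
Tnf: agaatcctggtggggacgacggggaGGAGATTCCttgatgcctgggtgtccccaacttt
Matches lay close to the start in Nfkbia and Tnfaip3, the genes for 2 inhibitors of the pathway, and in the first Nfkb2 promoter. One began 29 bases before the start in Nfkbia, and in Tnfaip3 the nearest began 24 and 12 bases before it. In the first Nfkb2 promoter the kappaB matches began 39, 38 and 11 bases before it. In the other Nfkb2 promoters, whose stretches are not shown, they began 236 and 225 bases before it. In Icam1 and Csf1 the match began 153 and 154 bases before the start, and in Tnf 212 bases before it.

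Libraries of the knockout experiment held 21164187 to 28350038 estimated reads and those of the antibody experiment 44080791 to 50813749. Enpp1, the gene targeted in the labels, was measured at 22.7 ± 1.19 CPM in the knockout-labelled libraries and 22.0 ± 1.52 CPM in the wild-type ones (SD, n = 6 each), a log2 change of 0.05 ± 0.05 (SE, as beside every log2 change; 95% interval -0.06 to 0.16, edgeR adjusted p = 0.465). CPM here are reads scaled to library size with TMM factors. The sources used here do not name the floxed exons, and a count over the whole gene need not register their loss. In the antibody experiment Enpp1 was at 9.51, 2.62, 3.26 and 17.4 CPM in the mAb libraries and 7.94, 8.86, 8.68 and 7.22 CPM in the IgG ones. All 8 markers of the proximal tubule, the main tubule of the kidney, passed the filter in both experiments, which does not check the labels. Their median summed level was 2296 CPM in wild-type adenine and 23200 CPM in chow libraries.

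On the adenine diet all 10 genes were lower in knockout-labelled kidneys than in wild-type ones, and all 10 were higher in wild-type adenine kidneys than in chow kidneys. With the antibody, 7 of the 10 were lower than with IgG. The background was broad in each comparison, and the 10 genes were chosen with earlier results of these data known. Of 16965 genes tested, 21.3% were called lower in the knockout-labelled libraries at an adjusted p under 0.05, 44.0% were called higher in wild-type adenine over chow, and 28.0% of 16410 genes were called lower with the antibody. The median log2 change of the 10 genes was -0.59 for knockout-labelled over wild type, 2.69 for wild-type adenine over chow and -0.52 for mAb over IgG, beside -0.02, 0.07 and -0.04 over all genes tested. In RNA from whole kidney, fewer cells of a type and less RNA per cell cannot be told apart.

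**Figure D1:**
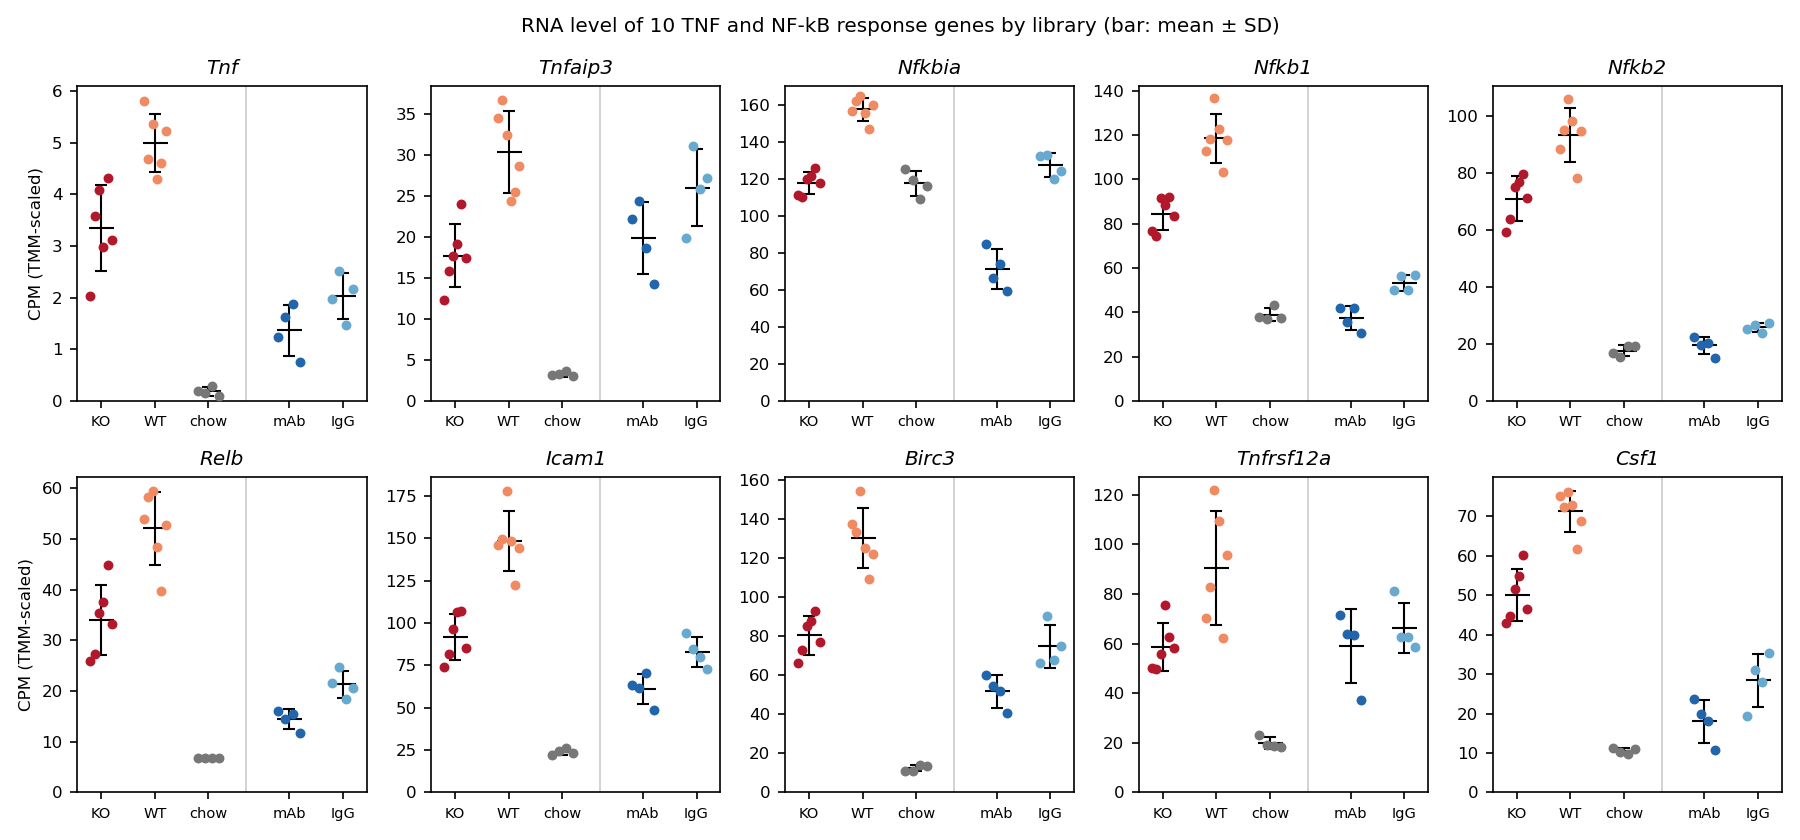
RNA level (TMM-scaled CPM, linear axis from 0) of the 10 genes, 1 panel per gene and 1 point per library, with bars at the mean ± SD. KO and WT are the knockout-labelled and wild-type libraries on adenine (6 each), followed by chow (4) and, right of the grey line, mAb and IgG (4 each) from the separate antibody experiment. All wild-type adenine points lie above all chow points in every panel, and for Nfkbia the knockout-labelled points (110.1 to 126 CPM) lie among the chow points (108.8 to 125.3 CPM).

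Tnf, the cytokine that gives the pathway its name, was low in all groups and close to the detection limit on chow. Its lowest, median and highest levels were 2.04, 3.35 and 4.32 CPM in knockout-labelled kidneys and 4.31, 4.96 and 5.82 CPM in wild-type adenine kidneys, and the 4 chow kidneys had 0.192, 0.157, 0.297 and 0.101 CPM. The highest knockout-labelled library lay just above the lowest wild-type one, and every adenine library lay above every chow library. The chow level rests on 15 reads over the 4 libraries. Tnf was 26.0-fold higher in wild-type adenine than in chow kidneys (log2 4.70 ± 0.28, adjusted p = 7.9e-12) and 17.5-fold higher in knockout-labelled than in chow kidneys (log2 4.13 ± 0.29). The difference between knockout-labelled and wild-type kidneys was -0.57 ± 0.15 (adjusted p = 0.0039), or 32.8% lower.

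Csf1, the growth factor of macrophages, was the other secreted product. It was at 43.0, 49.1 and 60.1 CPM (lowest, median, highest) in knockout-labelled kidneys and 61.8, 72.6 and 76.2 CPM in wild-type adenine kidneys, and at 11.3, 10.4, 9.64 and 10.9 CPM in chow kidneys. The 3 groups did not overlap. Csf1 was 29.6% lower in knockout-labelled than in wild-type kidneys (log2 -0.51 ± 0.07, adjusted p = 2.17e-05) and 6.75-fold higher in wild-type adenine than in chow kidneys (log2 2.75 ± 0.10). Its receptor Csf1r, carried by macrophages, had 64.3 CPM in knockout-labelled, 59.9 CPM in wild-type adenine and 59.6 CPM in chow kidneys, with a log2 difference of 0.10 ± 0.06 between knockout-labelled and wild-type (adjusted p = 0.179).

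Tnfrsf12a, the receptor of the cytokine TWEAK, varied widely between mice on adenine: 49.7, 57.2 and 75.7 CPM in knockout-labelled and 62.4, 89.2 and 121.8 CPM in wild-type kidneys. Chow kidneys had 23.3, 19.3, 18.8 and 18.4 CPM. Knockout-labelled and wild-type ranges overlapped, and both lay above chow. The receptor was 35.0% lower in knockout-labelled than in wild-type kidneys (log2 -0.62 ± 0.14, adjusted p = 0.00132) and 4.53-fold higher in wild-type adenine than in chow kidneys. The gene of its ligand TWEAK, Tnfsf12, was at 30.4 CPM in knockout-labelled, 30.5 CPM in wild-type adenine and 30.6 CPM in chow kidneys.

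Icam1, the adhesion receptor that holds leukocytes to endothelium, had 74.3, 90.8 and 106.9 CPM in knockout-labelled kidneys, 122.6, 147.3 and 178.1 CPM in wild-type adenine kidneys, and 22.2, 24.7, 26.2 and 23.2 CPM in chow kidneys. The 3 groups were fully separate. Icam1 was 38.0% lower in knockout-labelled than in wild-type kidneys (log2 -0.69 ± 0.09, adjusted p = 7.56e-06) and 6.15-fold higher in wild-type adenine than in chow kidneys (log2 2.62 ± 0.12). Of the genes for the integrin chains that bind its product, Itgal was at 6.90 CPM in knockout-labelled and 6.61 CPM in wild-type kidneys, Itgb2 at 16.5 CPM in knockout-labelled and 16 CPM in wild-type kidneys, and Itgam at 22.4 CPM in knockout-labelled and 25.7 CPM in wild-type kidneys. None of the 3 passed the test.

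The subunit genes followed the same order of groups. Nfkb1, which encodes p105 and p50, had 74.3, 86.0 and 91.8 CPM in knockout-labelled kidneys, 103.1, 117.8 and 136.8 CPM in wild-type adenine kidneys, and 37.8, 36.8, 43.5 and 37.6 CPM in chow kidneys, with no overlap between groups. It was 28.7% lower in knockout-labelled than in wild-type kidneys (log2 -0.49 ± 0.07, adjusted p = 1.37e-05). Nfkb2, which encodes p100 and p52, had 59.4, 73.2 and 79.8 CPM in knockout-labelled, 78.3, 94.9 and 106 CPM in wild-type adenine, and 16.9, 15.3, 19.4 and 19.1 CPM in chow kidneys. Only the highest knockout-labelled library reached into the wild-type range, and the difference was -0.39 ± 0.08 on the log2 scale (adjusted p = 0.000538). Relb, whose product pairs with p52, had 26.0, 34.3 and 44.8 CPM in knockout-labelled, 39.7, 53.3 and 59.5 CPM in wild-type adenine, and 6.71, 6.81, 6.83 and 6.79 CPM in chow kidneys. The knockout-labelled and wild-type ranges of Relb overlapped, with a difference of -0.61 ± 0.11 (adjusted p = 0.000228). Over chow, wild-type adenine kidneys had 3.04-fold the level of Nfkb1, 5.28-fold of Nfkb2 and 7.66-fold of Relb.

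Among the inhibitors, Nfkbia, the gene of IkBa, had 110.1, 118.8 and 126 CPM in knockout-labelled kidneys, 146.9, 158.2 and 164.8 CPM in wild-type adenine kidneys, and 125.3, 119.5, 108.8 and 116.3 CPM in chow kidneys, where it was already abundant. Knockout-labelled kidneys lay wholly below wild-type ones and overlapped with chow. Nfkbia was 25.3% lower in knockout-labelled than in wild-type kidneys (log2 -0.42 ± 0.05, adjusted p = 9.64e-07) and 1.34-fold higher in wild-type adenine than in chow kidneys (log2 0.42 ± 0.05, adjusted p = 3.7e-07). Between knockout-labelled and chow kidneys the difference was 0.00 ± 0.05 (95% interval -0.11 to 0.11, adjusted p = 0.971). With upper-quartile scaling, which moves all genes up against chow, that difference was 0.17 and passed the test (adjusted p = 0.00872).

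Tnfaip3, which encodes A20, a ubiquitin-editing enzyme that shuts the pathway down, had 12.3, 17.6 and 24.0 CPM in knockout-labelled kidneys, 24.4, 30.5 and 36.8 CPM in wild-type adenine kidneys and 3.12, 3.25, 3.71 and 3.04 CPM in chow kidneys. The knockout-labelled range ended just below the wild-type one. Its difference was the furthest from 0 of the 10 genes, 41.5% lower in knockout-labelled than in wild-type kidneys (log2 -0.77 ± 0.12, adjusted p = 6.24e-05), and its level was 9.25-fold higher in wild-type adenine than in chow kidneys. Birc3, which encodes the ubiquitin ligase cIAP2 of the TNF receptor complex, had 66.2, 81.1 and 93.0 CPM in knockout-labelled, 109.2, 129.3 and 154.1 CPM in wild-type adenine, and 11.2, 11.2, 14.1 and 13.5 CPM in chow kidneys. The 3 groups were separate, with 38.2% less Birc3 RNA in knockout-labelled than in wild-type kidneys (log2 -0.70 ± 0.09, adjusted p = 4.28e-06) and 10.4-fold more in wild-type adenine than in chow kidneys.

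Counted over the set, knockout-labelled libraries lay wholly below wild-type ones in 6 of the 10 genes, where 10.2% of all genes tested did so, and overlapped with them in Tnf, Nfkb2, Relb and Tnfrsf12a. Wild-type adenine libraries lay wholly above chow in 10 of 10 genes, against 37.8% of all genes. Against chow, the knockout-labelled libraries were called higher in 9 of 10 genes, all but Nfkbia, where 40.2% of genes were called higher. Both comparisons with chow use the same 4 chow libraries. In 3 of the 5 groups most of the genes had their highest and their lowest level in 1 library each: among the 6 knockout-labelled libraries, replicate 5 had the highest level of 9 of the 10 genes and replicate 1 the lowest of 7, and among the wild-type ones, replicate 3 had the highest of 8 and replicate 5 the lowest of 8, and among the mAb ones replicate 1 had the highest of 7 and replicate 4 the lowest of 10. In chow libraries replicate 3 had the highest of 7, but the lowest levels were spread over all 4 libraries, and in IgG libraries no replicate had more than 5 of the highest or 4 of the lowest. Between knockout-labelled and wild-type kidneys, the share of higher calls among all calls was 54.1%, and 40.8% under upper-quartile scaling, where 29.8% of genes were called lower and all 10 genes were among them.

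**Figure D2:**
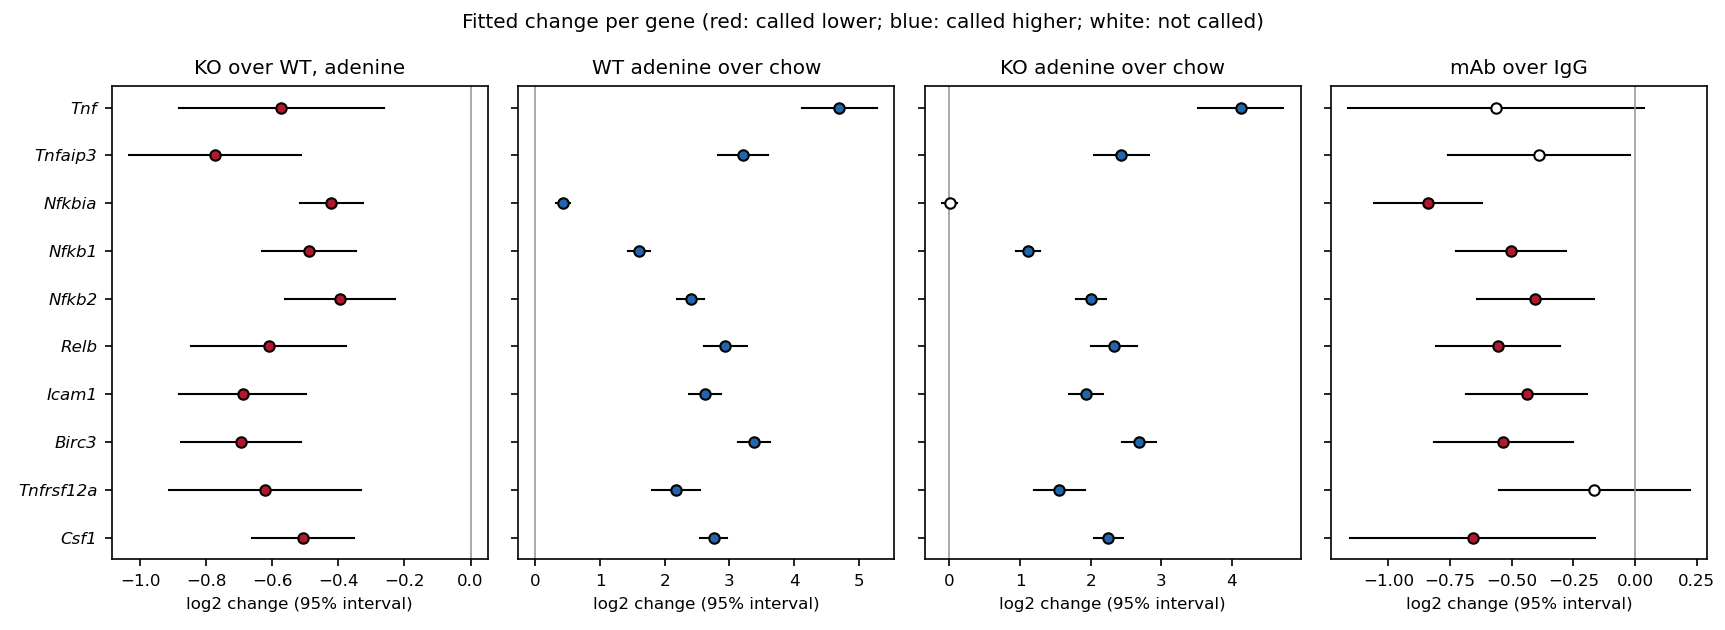
Fitted log2 change of each gene with its 95% interval, from left to right for knockout-labelled over wild type on adenine, wild-type adenine over chow, knockout-labelled adenine over chow, and mAb over IgG; the x axis differs between panels. Filled points passed an adjusted p under 0.05 (red lower, blue higher) and white points did not, which were Nfkbia in the third panel and Tnf, Tnfaip3 and Tnfrsf12a in the fourth.

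The antibody experiment compared a treatment in place of a genotype, and whether its mice carried the human ENPP1 gene was not given. Of the 10 genes, 7 were lower with the mAb than with IgG: Nfkbia, Nfkb1, Nfkb2, Relb, Icam1, Birc3 and Csf1. In the first 6 of these every mAb library lay below every IgG library, where 25.2% of all genes did so. Under upper-quartile scaling the share of higher calls among all calls was 31.1% in place of 49.3%, 40.3% of genes were called lower, and Tnf and Tnfaip3 passed too, at log2 changes of -0.72 and -0.55.

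Nfkbia differed most, with 84.8, 66.4, 73.9 and 59.5 CPM in mAb kidneys and 132.5, 133, 120.1 and 123.9 CPM in IgG kidneys. The highest mAb value lay far below the lowest IgG value. This was a decrease of 44.1% (log2 -0.84 ± 0.10, adjusted p = 9.99e-05). Birc3 had 60.2, 54.3, 51.8 and 40.5 CPM in mAb and 66.4, 90.4, 67.6 and 75.0 CPM in IgG kidneys, a log2 change of -0.53 ± 0.13 (adjusted p = 0.00474). Icam1 had 63.2, 61.7, 70.5 and 48.9 CPM in mAb and 93.9, 84.5, 80.0 and 73.0 CPM in IgG kidneys, a change of -0.44 ± 0.11 (adjusted p = 0.00629). For both, the groups were separate by a small margin.

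The subunit genes were also lower with the mAb. Relb had 16.1, 14.5, 15.5 and 11.8 CPM in mAb and 21.5, 24.8, 18.4 and 20.6 CPM in IgG kidneys (log2 -0.56 ± 0.11, adjusted p = 0.00194). Nfkb2 had 22.6, 19.6, 20.5 and 15.2 CPM in mAb and 25.3, 26.7, 23.7 and 27.4 CPM in IgG kidneys (log2 -0.40 ± 0.11, adjusted p = 0.00874). Nfkb1 had 42.0, 35.5, 42.0 and 30.8 CPM in mAb and 49.9, 56.2, 50.1 and 56.8 CPM in IgG kidneys (log2 -0.50 ± 0.10, adjusted p = 0.00171). All 3 genes were separate between the groups. The call for Nfkb1 did not hold when only transcripts annotated as protein-coding were counted, an alternative chosen after the transcripts had been seen: the log2 change was then 0.06 (adjusted p = 0.7).

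Csf1 had 23.6, 19.8, 18.2 and 10.6 CPM in mAb and 19.5, 31.0, 28.1 and 35.3 CPM in IgG kidneys. The lowest IgG library, replicate 1, lay among the mAb libraries. The log2 change was -0.66 ± 0.23 (adjusted p = 0.0281), and the call was lost without mAb replicate 3 (adjusted p = 0.0628), without IgG replicate 2 (0.0659), without IgG replicate 4 (0.0849) or with the replicate number as a block (-0.67, adjusted p = 0.0799). Csf1r was at 19.95 CPM in mAb and 32.2 CPM in IgG kidneys, a change of -0.69 ± 0.16 (adjusted p = 0.00356).

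The other 3 genes did not pass. Tnf had 1.24, 1.62, 1.88 and 0.749 CPM in mAb and 1.97, 2.53, 1.46 and 2.18 CPM in IgG kidneys (log2 -0.56 ± 0.27, 95% interval -1.16 to 0.04, adjusted p = 0.101). Tnfaip3 had 22.2, 24.4, 18.6 and 14.3 CPM in mAb and 19.9, 31.2, 25.9 and 27.2 CPM in IgG kidneys (log2 -0.39 ± 0.17, adjusted p = 0.0675), and passed without mAb replicate 2 (adjusted p = 0.0362) or without IgG replicate 1 (0.0227). Tnfrsf12a had 71.7, 63.9, 63.3 and 37.3 CPM in mAb and 81.4, 62.5, 62.5 and 58.8 CPM in IgG kidneys (log2 -0.17 ± 0.18, 95% interval -0.55 to 0.22, adjusted p = 0.445). Its low mAb value came from replicate 4, without which the change was 0.00. That library had the lowest level of all 10 genes among the mAb libraries, and also the highest Enpp1 level and the highest summed proximal tubule markers; without it, 7 of the 10 genes were still called lower.

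Whether the difference between knockout-labelled and wild-type kidneys and the difference between mAb and IgG kidneys were of unequal size was tested directly in a fit of the 20 adenine libraries, with 17119 genes. Of the 10 genes only Nfkbia passed, where 16.3% of all genes were called higher and 21.6% lower. Its knockout-labelled effect minus its antibody effect was 0.34 ± 0.10 (adjusted p = 0.00786), the antibody difference being the larger decrease. For the other 9 genes the difference between effects ran from -0.53 to 0.08 and the adjusted p from 0.101 to 0.844. The intervals were wide, from -1.06 to -0.01 for Tnfrsf12a and from -0.72 to 0.54 for Tnf, so that a missed threshold does not show equal effects. Without mAb replicate 4, Tnfrsf12a (-0.70, adjusted p = 0.0228) and Icam1 (-0.42, adjusted p = 0.0397) also passed, and Tnfrsf12a passed without wild-type replicate 5 (-0.62, adjusted p = 0.047). The experiments were separate and differed in depth, and the share of higher calls among all calls in this test was 69.1% under upper-quartile scaling in place of 43.0%.

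A list of 77 other genes of the pathway, arranged by role, was read beside the 10. Of these, 73 passed the filter in the knockout experiment and 72 in the antibody experiment. In knockout-labelled over wild-type kidneys 3 were called higher and 33 lower, beside 25.1% and 21.3% of all genes tested. In wild-type adenine over chow 56 were called higher and 7 lower, beside 44.0% and 40.9% of all genes. In knockout-labelled over chow 53 were called higher and 8 lower, beside 40.2% and 39.9%. In mAb over IgG 11 were called higher and 40 lower, beside 27.2% and 28.0%. The median log2 change of the list was -0.16 for knockout-labelled over wild type, beside -0.59 for the 10 genes, and -0.38 for mAb over IgG, beside -0.52 for them.

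**Figure D3:**
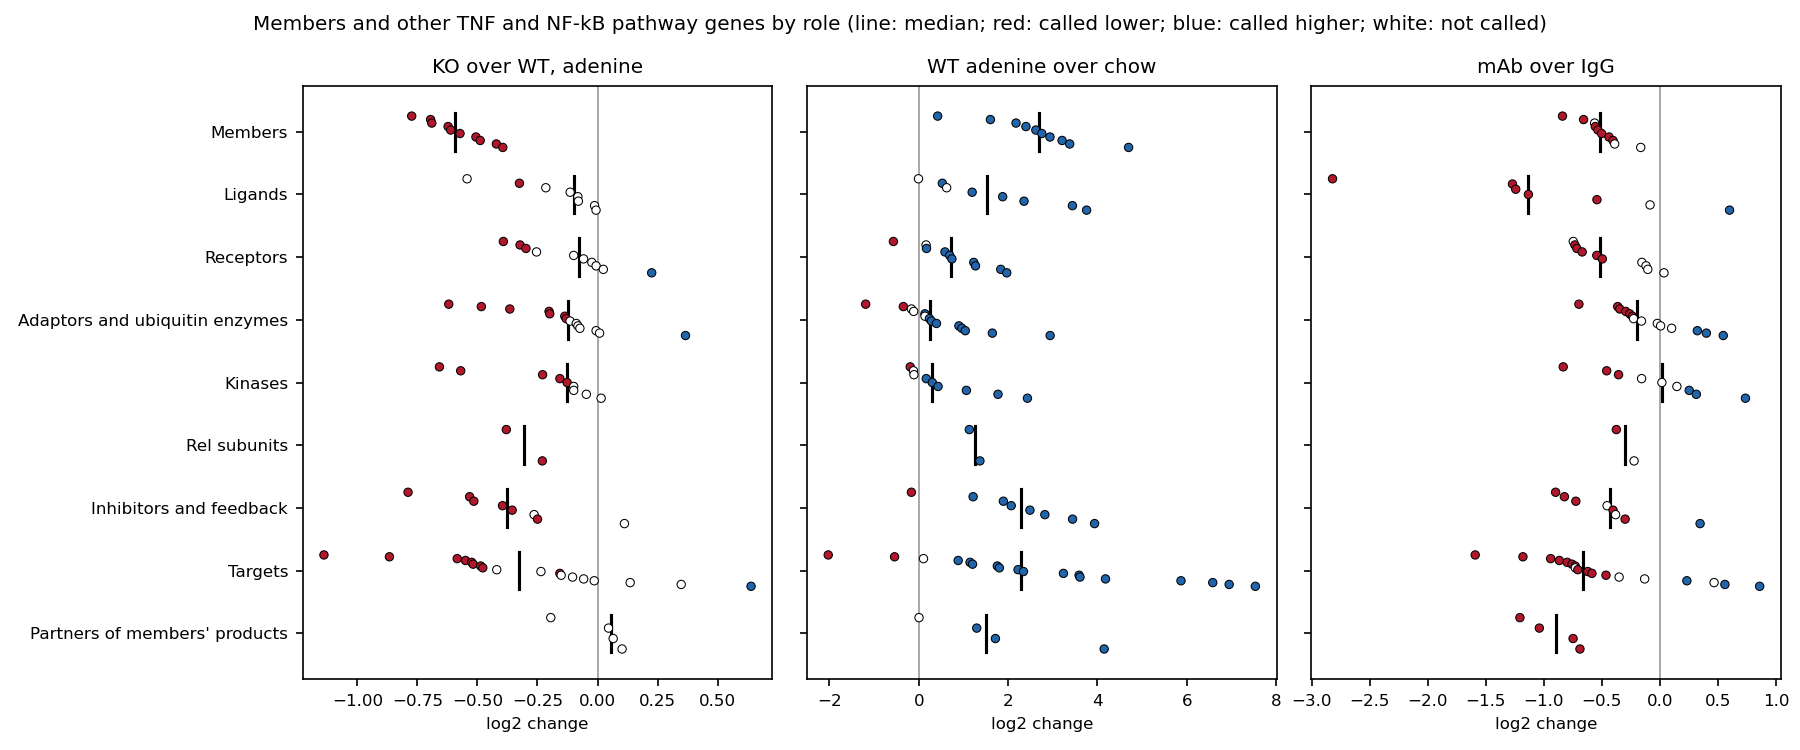
Fitted log2 change of the 10 genes (Members, top row) and of the other pathway genes by role, for knockout-labelled over wild type on adenine, wild-type adenine over chow, and mAb over IgG; 1 point per gene, black line at the median, red called lower, blue called higher, white not called, with a different x axis in each panel. In the left panel the medians of the ligand, receptor, adaptor and kinase rows lie between -0.13 and -0.08, and in the right panel the ligand row has its median at -1.13. Changes over chow of genes with few chow reads (3 to 7 for Lta, Il1a, Ccl20 and Cxcl2, 2 for Il6) depend on the prior count of the fit.

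Between knockout-labelled and wild-type kidneys, 1 of 8 ligands tested and 3 of 10 receptors were lower, where 21.3% of all genes tested were. The ligand was Tnfsf10, which encodes the death ligand TRAIL (36.9 CPM in knockout-labelled and 46.2 CPM in wild-type kidneys, log2 -0.33 ± 0.07, adjusted p = 0.0013). The receptors were Cd40 (-0.39 ± 0.09), Tlr2 (-0.32 ± 0.11) and Il1r1 (-0.30 ± 0.07). One other receptor was higher, the lymphotoxin receptor Ltbr (64.8 CPM in knockout-labelled and 55.4 CPM in wild-type kidneys, 0.23 ± 0.05). The TNF receptors themselves did not pass: Tnfrsf1a was at 60.0 CPM in knockout-labelled and 61.0 CPM in wild-type kidneys, and Tnfrsf1b at 13.1 CPM in knockout-labelled and 15.7 CPM in wild-type kidneys (log2 -0.25 ± 0.11, adjusted p = 0.0755). Over chow, Tnfrsf1b was at 15.7 CPM in wild-type adenine and 4.39 CPM in chow kidneys (log2 1.84 ± 0.15) and Tnfrsf1a at 61.0 CPM in wild-type adenine and 54.1 CPM in chow kidneys (0.17 ± 0.07, adjusted p = 0.0203).

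Between the receptors and the nucleus, 3 genes stood furthest from 0 among those called lower in knockout-labelled kidneys. Birc2, which encodes cIAP1, was at 118.3 CPM in knockout-labelled and 181.9 CPM in wild-type kidneys (log2 -0.62 ± 0.07, adjusted p = 1.77e-06), Map3k14, which encodes NIK, at 26.2 CPM in knockout-labelled and 38.9 CPM in wild-type kidneys (-0.57 ± 0.06, adjusted p = 5.27e-07), and Map3k8, a kinase that p105 binds, at 6.76 CPM in knockout-labelled and 10.7 CPM in wild-type kidneys (-0.66 ± 0.09). Of all genes tested in this comparison, 21.3% were called lower and 25.1% higher. Of 14 adaptors and ubiquitin enzymes 7 were lower, Traf1 (-0.48 ± 0.08) and Traf2 (-0.37 ± 0.06) among them. Only 1 was higher, Otulin, a deubiquitinase of linear chains (14.99 CPM in knockout-labelled and 11.6 CPM in wild-type kidneys, 0.37 ± 0.07). Of 9 kinases 5 were lower. Ikbkb, which encodes IKKb, was among them (log2 -0.23, adjusted p = 0.00158), but its change was 0.21 (adjusted p = 0.235) when only protein-coding transcripts were counted. Both remaining Rel subunits were lower, Rela (53.0 CPM in knockout-labelled and 69.0 CPM in wild-type kidneys, -0.38 ± 0.06) and Rel (7.30 CPM in knockout-labelled and 8.57 CPM in wild-type kidneys, -0.23 ± 0.08).

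Of 8 other inhibitors and feedback genes 6 were lower in knockout-labelled kidneys, where 21.3% of all genes tested were. Nfkbiz, an inducible nuclear IkB protein, was at 160.7 CPM in knockout-labelled, 277.8 CPM in wild-type adenine and 25.5 CPM in chow kidneys, with a difference of -0.79 ± 0.08 between knockout-labelled and wild-type (adjusted p = 4.54e-07). Zc3h12a, which encodes an RNase that degrades cytokine mRNA, and Bcl3, a nuclear partner of p50 and p52, differed by -0.53 ± 0.08 and -0.52 ± 0.10. Of 18 target genes tested 9 were lower, the neutrophil chemokines Cxcl1 (41.1 CPM in knockout-labelled and 90.5 CPM in wild-type kidneys, -1.14 ± 0.15, adjusted p = 4.93e-06) and Cxcl2 (9.43 CPM in knockout-labelled and 17.2 CPM in wild-type kidneys, -0.87 ± 0.15) and the adhesion molecule Vcam1 (166.8 CPM in knockout-labelled and 250.1 CPM in wild-type kidneys, -0.58 ± 0.11) furthest. Sod2, the mitochondrial superoxide dismutase, moved the other way: it was at 174.5 CPM in knockout-labelled, 112 CPM in wild-type adenine and 456.4 CPM in chow kidneys, and was higher in knockout-labelled than in wild-type kidneys by 0.64 ± 0.08 (adjusted p = 3.15e-06).

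With the antibody, 5 of 7 ligands tested and 5 of 10 receptors were lower, where 28.0% of all genes tested were; 1 ligand was higher, and 1 ligand and 5 receptors were not called. The lower ligands included Il1b (2.02 CPM in mAb and 4.89 CPM in IgG kidneys, log2 -1.27 ± 0.22) and the B-cell factor Tnfsf13b (2.01 CPM in mAb and 4.76 CPM in IgG kidneys, -1.24 ± 0.22). The TWEAK gene Tnfsf12 was at 11.96 CPM in mAb and 17.4 CPM in IgG kidneys (-0.54 ± 0.11, adjusted p = 0.00158). Tnfsf10 was higher, at 71.1 CPM in mAb and 46.9 CPM in IgG kidneys (0.60 ± 0.11). The lower receptors included Tnfrsf1b (6.50 CPM in mAb and 10.7 CPM in IgG kidneys, -0.72 ± 0.17). The integrin genes Itgam (-1.21 ± 0.20), Itgb2 (-1.04 ± 0.18) and Itgal (-0.75 ± 0.22) were lower as well. In the difference between the knockout-labelled and the antibody effect, 13 of 73 pathway genes tested were called higher and 15 lower. Of all genes tested, 16.3% were called higher and 21.6% lower. Among those higher were Tnfsf12 (0.46 ± 0.11), Csf1r (0.72 ± 0.16), Itgam (0.93 ± 0.22), Itgb2 (1.01 ± 0.24) and Itgal (0.74 ± 0.28). Among those lower were Cxcl1 (-1.08 ± 0.28), Ccl20 (-1.07 ± 0.31), Chuk (-0.91 ± 0.09) and Ripk1 (-0.63 ± 0.08). Cxcl1 was at 123.4 CPM in mAb and 135.3 CPM in IgG kidneys.

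Within the cell, genes of the pathway were called in both directions with the antibody. Of all genes tested, 27.2% were called higher and 28.0% lower. Of 9 kinases 3 were higher, Chuk, which encodes IKKa (259.3 CPM in mAb and 155.6 CPM in IgG kidneys, 0.74 ± 0.08, adjusted p = 6.98e-05), Ikbkg (0.31 ± 0.07) and Tab3 (0.25 ± 0.07), and 3 were lower, Map3k8 (-0.83 ± 0.25), Map3k14 (-0.46 ± 0.14) and Tab1 (-0.36 ± 0.09). Of 14 adaptors and ubiquitin enzymes 3 were higher, Ripk1 (0.55 ± 0.07), Cyld (0.40 ± 0.06) and Traf6 (0.32 ± 0.07), and 6 were lower, Traf1 furthest (-0.70 ± 0.13). Rel was lower (-0.38 ± 0.11), and Rela, at 22.5 CPM in mAb and 26.2 CPM in IgG kidneys, did not pass (adjusted p = 0.0637). Among 8 inhibitors 5 were lower, Nfkbiz furthest (75.1 CPM in mAb and 140.1 CPM in IgG kidneys, -0.90 ± 0.17), and Nfkbib, a constitutive IkB gene, was higher (0.35 ± 0.09). Of 18 targets 11 were lower, among them Bcl2a1b (-1.59 ± 0.25), Ptgs2 (-1.18 ± 0.29) and Saa3 (-0.94 ± 0.17), and 3 were higher, Sod2 (0.86 ± 0.11), Bcl2l1 (0.56 ± 0.07) and Cflar (0.23 ± 0.07).

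Markers of some of the cell types that a kidney sample can hold also differed between groups, unequally by list and between the 2 experiments. Between knockout-labelled and wild-type kidneys, 25.1% of all genes tested were called higher and 21.3% lower. Of 10 macrophage markers, 2 of which, Csf1r and Itgam, are also in the pathway list, 0 were higher and 1 was lower. Their summed levels were 401.7 to 532.6 CPM in knockout-labelled and 364.5 to 530.1 CPM in wild-type libraries. Neutrophil markers had 1 of 5 tested lower (30.9 to 56.9 CPM in knockout-labelled and 43.4 to 63.3 CPM in wild-type libraries), and lymphocyte markers 0 of 8 in either direction. Injured tubule markers, 2 of which, Lcn2 and Vcam1, are also in the pathway list, were lower in 4 of 6 (588.7 to 864.2 CPM in knockout-labelled and 725.9 to 1056 CPM in wild-type libraries). Proximal tubule markers were higher in 8 of 8, with sums of 4947 to 8338 CPM in knockout-labelled and 1771 to 3375 CPM in wild-type libraries, endothelial markers in 7 of 7 and fibroblast markers in 3 of 5. Red blood cell markers were higher in 5 of 5 with the largest median change of the 8 marker lists (log2 3.93), their sums being 204.2 to 491.6 CPM in knockout-labelled, 12.49 to 35.65 CPM in wild-type adenine and 1072 to 1295 CPM in chow libraries. Knockout-labelled replicate 5, highest in 9 of the 10 genes, had the lowest proximal tubule sum of its group. Wild-type replicate 5, lowest in 8, had the highest of its group. The libraries at the other ends did not hold the extreme proximal tubule sums. Knockout-labelled replicate 1, lowest in 7, had 7070 CPM, below replicates 2 (8338 CPM) and 6 (7342 CPM). Wild-type replicate 3, highest in 8, had 1991 CPM, above replicate 1 (1771 CPM). The injured tubule sum was extreme within its group in each of these libraries. Knockout-labelled replicate 5 had the highest (864.2 CPM) and replicate 1 the lowest (588.7 CPM). Wild-type replicate 3 had the highest (1056 CPM) and replicate 5 the lowest (725.9 CPM).

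Between mAb and IgG kidneys, 10 of 10 macrophage markers were lower, where 27.2% of all genes tested were called higher and 28.0% lower. Their sums were 182.8 to 263.1 CPM in mAb and 398.7 to 784.3 CPM in IgG libraries. Csf1r and Itgam are counted both in this list and in the pathway list. All 4 neutrophil markers tested were lower (sums of 8.16 to 11.4 CPM in mAb and 15.7 to 23.0 CPM in IgG libraries), and 6 of 6 injured tubule, 4 of 5 fibroblast, 3 of 7 endothelial and 1 of 6 lymphocyte markers tested. The neutrophil list holds 7 genes, and Retnlg, Ly6g and Ngp did not pass the filter in this experiment. They had 8, 2 and 1 reads over the mAb libraries and 24, 11 and 2 over the IgG libraries. Ngp had 0 reads over the chow libraries. Proximal tubule markers were higher in 8 of 8 (13160 to 20910 CPM in mAb and 3397 to 6887 CPM in IgG libraries), and red blood cell markers were called in neither direction. The difference between effects was called higher for 10 of 10 macrophage markers, where 16.3% of all genes were. The part of these cell types in the changes of the 10 genes was not tested.

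**Figure D4:**
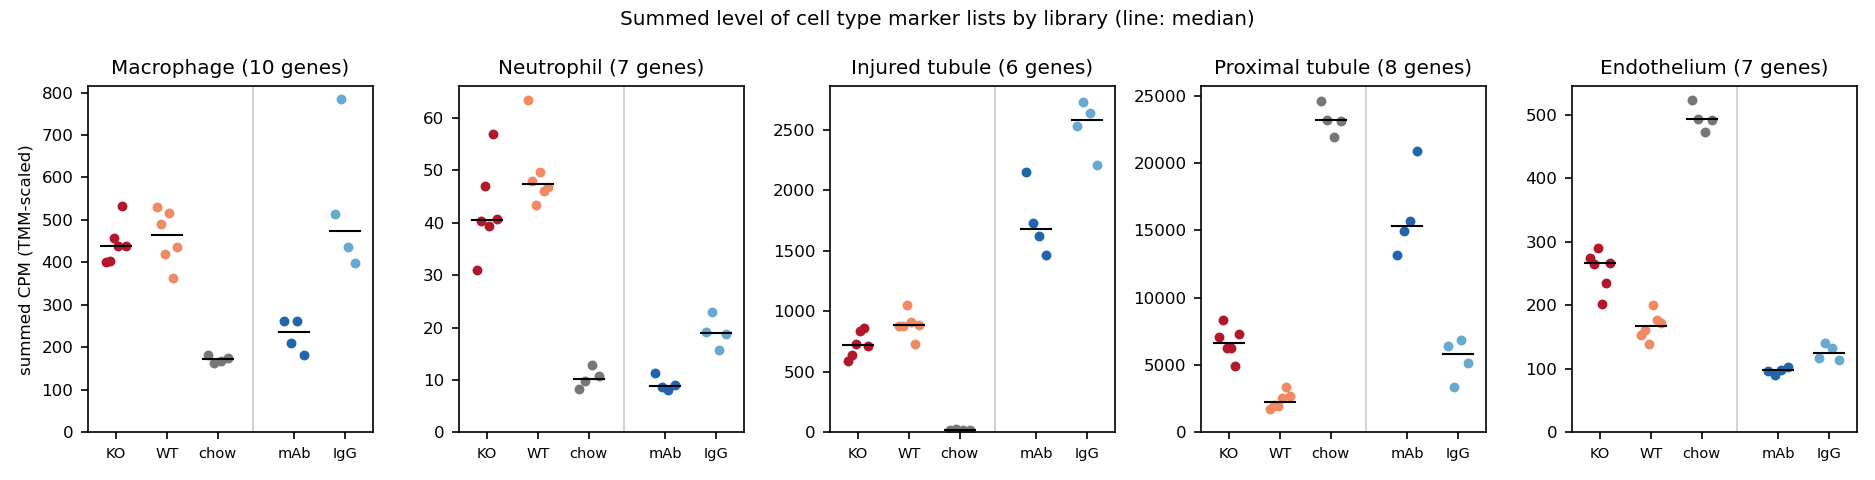
Summed TMM-scaled CPM of 5 marker lists by library (linear axes from 0, line at the median); KO and WT are the knockout-labelled and wild-type libraries on adenine, and the grey line separates the antibody experiment. Macrophage sums of knockout-labelled and wild-type libraries overlap, while those of mAb libraries (at most 263.1 CPM) lie below those of IgG libraries (at least 398.7 CPM); proximal tubule sums are separate in both pairs.

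Much of the signal of some genes was assigned to transcripts annotated as non-coding, mostly retained introns and models subject to nonsense-mediated decay. For Nfkb1, protein-coding models held 21.5% of the reads in knockout-labelled, 18.6% in wild-type adenine and 21.4% in chow libraries, and 42.4% in mAb and 27.3% in IgG libraries. Per library, the mAb shares (38.9% to 49.4%) did not overlap with the IgG shares (24.2% to 30.2%). For Relb the coding share was 65.1% in knockout-labelled, 62.0% in wild-type adenine and 89.9% in chow libraries, and for Tnfrsf12a 81.5%, 77.2% and 97.4%, with every adenine library below every chow library in both genes. In the antibody experiment Tnfrsf12a had 94.8% in mAb and 94.6% in IgG libraries. Counting coding models only, Nfkb1 was still called lower in knockout-labelled than in wild-type kidneys (log2 -0.34, adjusted p = 0.039), as were the other 9 genes.

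**Figure D5:**
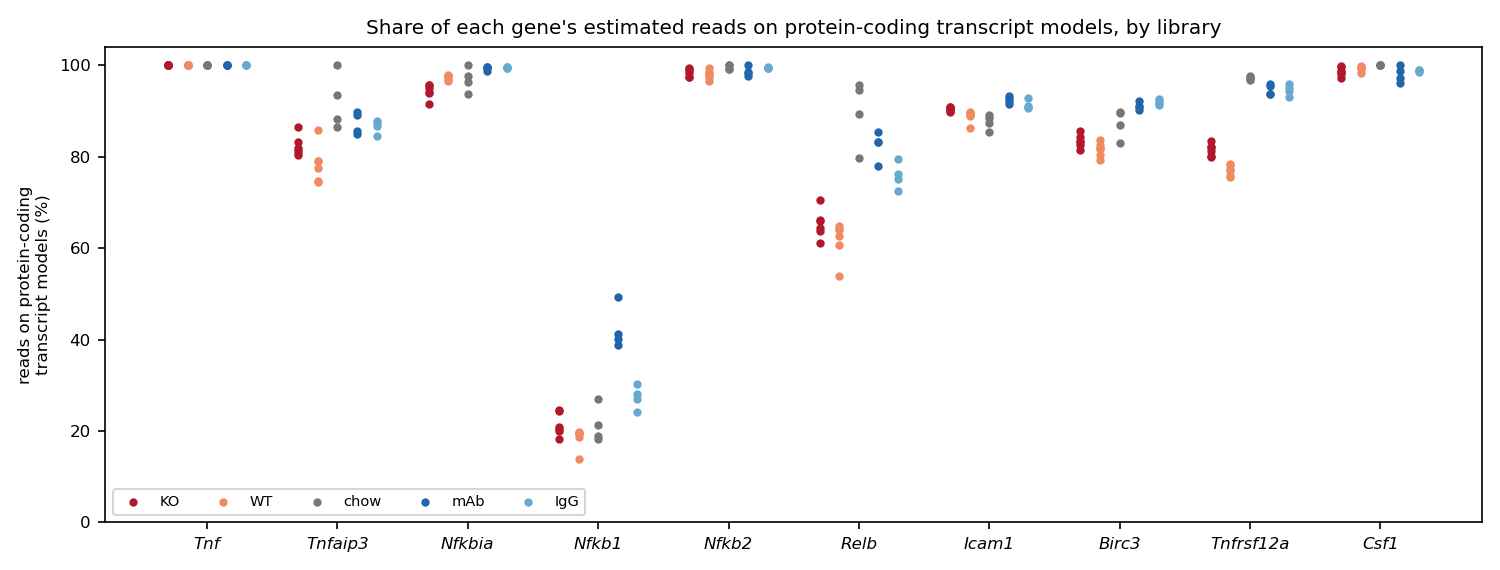
Percent of each gene's estimated reads on protein-coding transcript models, 1 point per library, by group (KO and WT on adenine, chow, mAb, IgG; axis from 0). Nfkb1 lies below 50% in every library, and Relb and Tnfrsf12a are lower in the KO and WT adenine libraries than in chow.

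Set per transcript length, in TPM as deposited and summed over each gene's models, Birc3 (120.9 ± 22.9 TPM), Nfkbia (102.8 ± 10.2) and Tnfrsf12a (92.3 ± 15.6) had the highest levels in knockout-labelled kidneys, with neighbours in that order within their spread of each other (SD, n = 6). In wild-type adenine kidneys Birc3 (227 ± 49.5 TPM) was followed by Tnfrsf12a (152.7 ± 34.9) and Nfkbia (139.4 ± 14.9), which lay within their spread of each other, and Tnfaip3 (8.63 ± 1.99) and Tnf (4.06 ± 0.78) were the lowest (SD, n = 6). In chow kidneys Nfkbia stood first at 56.8 ± 3.83 TPM, followed by Tnfrsf12a at 17.2 ± 2.86 TPM, with Birc3 at 8.80 ± 1.40 and Tnf at 0.083 ± 0.032 TPM (SD, n = 4). In mAb kidneys Tnfrsf12a was first (70.4 ± 19.2 TPM) and Nfkbia second (44.7 ± 7.60), and in IgG kidneys Nfkbia (91.2 ± 13.1) and Tnfrsf12a (88.7 ± 6.48) lay within their spread. Csf1 and Relb were within their spread of each other in each of the 5 groups. The place of Birc3 rests on non-coding models, 2 processed transcripts above all: its coding models held 24.0% of its TPM in knockout-labelled, 21.7% in wild-type adenine and 31.5% in chow kidneys, although they held 83.4%, 81.5% and 87.2% of its reads in those groups. On coding models only, the mean levels of Nfkbia, Tnfrsf12a, Icam1 and Birc3 came in that order in all 3 groups: 87.5, 71.4, 38.4 and 29.0 TPM in knockout-labelled, 129.5, 110.5, 65.1 and 49.3 TPM in wild-type adenine, and 52.3, 16.6, 5.67 and 2.77 TPM in chow kidneys.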

How the data were processed

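Stranded kidney libraries were made from total RNA (400 ng), per the labels' protocols. Per the submitters' processing notes, quantification used Salmon and the GRCm39 assembly; FastQC, DESeq and DESeq2 are named there too, all without versions. The authors deposited expected counts (estimated read counts, not normalized) and TPM per transcript, per the file headers. Of 116755 transcript identifiers 115685 (99.1%) matched GENCODE M21; the other 1070, with 0.44% to 0.53% of the reads, were left out. Counts were summed per gene and rounded. Genes were tested in edgeR 4.0.16 (R 4.3.3) by the quasi-likelihood F test after filterByExpr and TMM, two-sided, with Benjamini-Hochberg adjustment over all genes tested and a threshold of 0.05. The knockout experiment shared a fit of 16 libraries, the antibody experiment had a fit of 8, and a fit of 20 tested the difference between effects. Errors beside log2 changes are standard errors and beside CPM and TPM SDs; TPM entered no test. Without molecular identifiers, reads do not count molecules independently, and depth bounds counting error only. Alternatives were RLE and upper-quartile scaling, DESeq2 1.42.0, limma voom 3.58.1, no filter, a filter of 1 CPM, a transcript length offset, a replicate block, only the 2 groups compared, each replicate left out, and protein-coding transcripts only. The 10 genes, the pathway and marker lists and the tests were chosen with earlier results of these data known. Named were the 10 genes, Enpp1, direct partners, and up to 3 called genes per role and direction. Promoter sequences came from RefSeq on GRCm38.p6, which is not the submitters' build.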

Additional observations from a re-analysis of the deposited data

Results flagged for a closer look

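Of 50 sets of a gene and a group searched, 2 held a library that stood apart from the others; chance gives about 1 in 20. Nfkb1 was at 43.47 CPM in chow replicate 3, its gap to the next library being 0.849 of the range of the 4 (critical value 0.829). Tnfrsf12a was at 81.37 CPM in IgG replicate 1, with a gap of 0.834 of the range. Nfkbia differed between experiments: its knockout-labelled effect minus its antibody effect was 0.3436 on the log2 scale by a direct test (edgeR adjusted p = 0.00786).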

How the results depend on the processing

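Between knockout-labelled and wild-type kidneys and between wild-type adenine and chow kidneys, all 10 genes kept their direction and call in every alternative run (220 and 200 values). Nfkbia passed in the difference between effects in 29 of 29 (log2 0.27 to 0.50). The knockout-labelled to chow difference of Nfkbia, near 0, turned to -0.001 with RLE scaling and with DESeq2, -0.0013 with the replicate block, and ran from -0.018 to 0.0583 with single libraries left out. Protein-coding counts turned Nfkb1 to 0.0571 (mAb over IgG), Ikbkb to 0.2061 (knockout-labelled over wild type) and Traf5 to 0.1647 (knockout-labelled over chow). Upper-quartile scaling shifted the median of all genes by 0.23 (wild-type adenine over chow), 0.16 (knockout-labelled over chow), -0.16 (mAb over IgG) and 0.16 (difference between effects). Under it Chuk was at 0.0336 and Nfkbib at 0.0612 (wild-type adenine over chow), Enpp1 at -0.0162 (knockout-labelled over wild type), and, in the difference between effects, Tnf at 0.0719, Nfkb1 0.0963, Nfkb2 0.0914 and Relb 0.0294. It also called 5 pathway genes lower in knockout-labelled than in chow kidneys, 6 higher with the mAb, and in the difference 4504 genes higher, 2012 lower and 23 pathway genes higher. The length offset gave Chuk 0.1608 (wild-type adenine over chow), Rela 0.1044 and Enpp1 0.2243 (mAb over IgG), where Enpp1 was also at 0.0147 with RLE scaling and 0.0207 with DESeq2. With single libraries left out, mAb over IgG ran from -0.269 to 0.0043 for Tnfrsf12a and from -0.6725 to 0.2978 for Enpp1, and the difference between effects from -0.2847 to 0.0915 for Tnf, from -0.1642 to 0.0047 for Nfkb2 and from -0.1033 to 0.2238 for Csf1, with 0 to 2 of the 10 genes lower there (2 without mAb replicate 4, 1 without wild-type replicate 5). The cause of these changes was not tested. Same-numbered libraries did not deviate together (correlations -0.144 to 0.069), and the labels do not say whether the numbers pair samples. With the replicate block 6 of the 10 genes were lower with the mAb, Csf1 reaching -0.6745 (edgeR adjusted p = 0.0799). Depth limits Tnf on chow most (15 reads).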
